A study of Mus musculus with 4 samples.

Results

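The vascular and meningeal nuclei of mouse hippocampus are the endothelial, mural and fibroblast nuclei of blood vessels and of the membranes that wrap the brain. They were taken from 4 libraries of single-nucleus RNA sequencing and numbered 132 of 60288 barcodes, or 0.219%. A barcode belonged if it had at least 400 detected genes, at most 1 UMI (a unique molecular identifier, counted once per captured RNA molecule) of Slc17a7, at most 1 of Gad1 and Gad2 together, and at least 3 detected genes of 1 of 3 marker sets. The endothelial set was Flt1, Cldn5, Pecam1, Mecom and Adgrl4, the mural set was Pdgfrb, Rgs5, Atp13a5 and Notch3, and the fibroblast set was Col1a2, Col3a1, Slc6a13, Bnc2 and Ranbp3l. The nuclei were chosen by the UMI counts of these genes, so their levels are a description and no finding. The sets held 77 endothelial, 29 mural and 33 fibroblast nuclei, with 7 nuclei in both the endothelial and the mural set. Because 2 of the sets held fewer than 50 nuclei, the 3 were pooled for the main comparisons between libraries. Shares and levels by library within a set are also given, but they rest on few nuclei and are a description only.

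The study compared mice that differ in monoacylglycerol lipase (MAGL), the enzyme encoded by Mgll that breaks down the endocannabinoid 2-arachidonoylglycerol. The groups were a wild-type library, a library from mice with MAGL removed in the whole body (total knockout), one with MAGL removed from astrocytes (astrocyte knockout) and one with MAGL removed from neurons (neuron knockout). Neither of the last 2 deletions is labelled as covering the vascular or meningeal cells. The age of the mice, the drivers of the cell-specific deletions and the number of mice in a library are stated in no label. Each genotype had 1 library, so no comparison between genotypes has a replicate check and none was tested. Nuclei are not replicates, and every interval below is a 95% interval that covers counting error only.

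Endothelial cells line the vessels and, in brain, form the blood-brain barrier with tight junctions, efflux pumps and selective carriers. Mural cells (pericytes on capillaries, smooth muscle on larger vessels) wrap them, and the 2 layers share a basement membrane. Fibroblasts of the meninges and of the spaces around vessels make collagens, retinoic acid and prostaglandin D2 synthase, and carry many solute carriers. MAGL is known as the main source of free arachidonic acid for prostaglandin synthesis in brain.

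Several features of the libraries touch the results. Members were shallow: their median was 1306 UMIs and 932.5 genes, against library medians of 5456 to 8904 UMIs. All members of a library together held 68341 UMIs in wild type, 170687 in the total knockout, 22149 in the astrocyte knockout and 49924 in the neuron knockout. Mitochondrial RNA made up a median of 0.192% of a member's UMIs in the wild-type library and 0.191% in the total knockout, but 2.63% in the astrocyte knockout and 1.31% in the neuron knockout. The median over all barcodes was at most 0.0284% in any library. The median share of ribosomal-protein transcripts in members was 0.916% in wild type, 1.09% in the total knockout, 3.80% in the astrocyte knockout and 1.46% in the neuron knockout. Sex-linked genes differed too. In the wild-type library 11 of 34 members had Xist, 13 had a Y-linked gene and 2 had both, while in the total knockout 0 of 65 had Xist and 36 had a Y-linked gene. Xist was found in 8 of 12 members of the astrocyte knockout and 12 of 21 of the neuron knockout, with a Y-linked gene in 2 and 4. Sex and genotype therefore cannot be told apart in the total knockout. Pairs of libraries shared 108 to 466 barcode sequences. The part of mitochondrial RNA, ribosomal-protein transcripts and sex in the differences below was not tested.

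RNA of neurons marked a subset of the members, most of them in 1 library. A list of 12 neuron genes, among them Snap25, Syt1 and Rbfox3, gave at least 1% of the UMIs in 23 members: 2 in wild type, 20 in the total knockout, 0 in the astrocyte knockout and 1 in the neuron knockout. In those 23 the list's share lay between 1.27% and 6.40%, and the library medians were 3.55% to 4.00%. The 23 were deeper, with a median of 6547 UMIs against 1075 in the other members, and 69 members had no UMI of the list. By set, 16 of the 23 were endothelial, 3 mural and 4 fibroblast. A doublet caller marked 35 of the 65 members of the total knockout, 9 of them among the neuron-rich nuclei, and none in the other libraries. Main results are therefore given with and without the neuron-rich nuclei where enough UMIs remained.

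**Figure D1:**
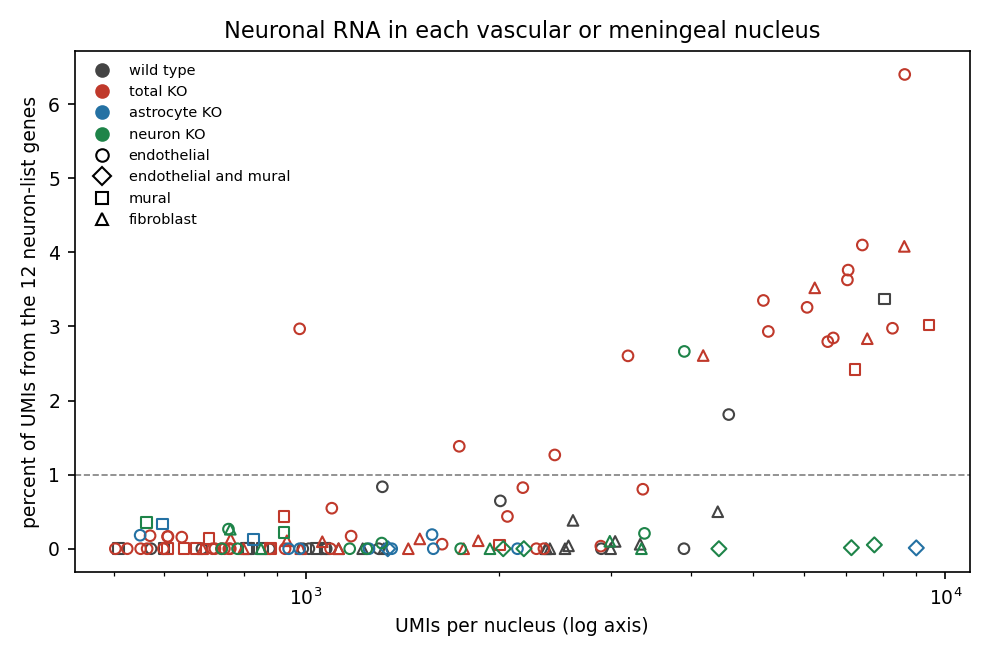
Share of each member's UMIs from the 12 neuron-list genes (vertical axis, percent) against its total UMIs (horizontal axis, log scale), 1 point per nucleus, by library. The dashed line is the 1% limit: 20 of the 23 nuclei at or above it belong to the total knockout, and the 23 have a median of 6547 UMIs against 1075 in the others.

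Other cell types left traces too, given here in UMIs per 1000000 UMIs of the members (CPM). The 13-gene list of microglia and macrophages summed to 87.8 CPM in wild type, 287 in the total knockout, 0 in the astrocyte knockout and 120 in the neuron knockout, against 55.9 in the barcodes outside the members, and Lyve1 was at 0 in all of them. The 11 astrocyte genes summed to 3175, 1131, 1761 and 1963 CPM in the same order (824 outside), and the 10 oligodendrocyte genes to 219, 943, 226 and 621 CPM (513 outside). Precursors of oligodendrocytes (8 genes) gave 717, 1043, 135 and 581 CPM (966 outside) and ependyma (8 genes) 14.6, 35.2, 0 and 20.0 CPM (19.9 outside). The 10 choroid plexus genes gave 4478, 2783, 361 and 260 CPM (433 outside), and 200 of the 229 UMIs of Ttr, the transthyretin gene, in wild-type members came from 1 nucleus, as did 277 of 368 in the total knockout. Without the member that held most of the choroid list, the sums were 856, 979, 380 and 220 CPM. Without the neuron-rich nuclei the total knockout's sums were 2102 CPM for oligodendrocytes, 1414 for their precursors and 727 for microglia and macrophages. Choroid plexus genes were then at 8171 CPM there against 5474 in wild type, and astrocyte genes at 1689 against 3805. With or without those nuclei, the total knockout was the highest of the 4 for RNA of oligodendrocytes, their precursors and microglia, and wild type for RNA of astrocytes. Single nuclei held much of these sums. Without the neuron-rich nuclei, 1 nucleus of the total knockout held 59 of 107 oligodendrocyte UMIs. Another held 46 of 72 precursor UMIs, and another 21 of 37 microglia and macrophage UMIs. Over all wild-type members, 2 nuclei held 79 and 60 of 217 astrocyte UMIs. The part of RNA of other cell types in the differences between libraries was not tested.

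Most members held the minimum or little more of the rule's markers. Of the 77 endothelial nuclei, 32 had exactly 3 of the 5 markers, 28 had 4 and 17 had all 5. Of the 29 mural nuclei, 18 had 3 markers and 11 had all 4, and of the 33 fibroblast nuclei, 25, 7 and 1 had 3, 4 and 5. Just outside the threshold, with 2 markers and the same neuron limits, were 43 endothelial, 46 mural and 70 fibroblast barcodes. The next values are of rule genes, so the selection fixed them and they describe the sets only. Among the 70 nuclei that were endothelial alone, Flt1, a receptor for vascular endothelial growth factor, had a UMI in 68 and Atp13a5, a pericyte transporter, in 2. Among the 22 that were mural alone, Atp13a5 had a UMI in 20, Pdgfrb in 20 and Cldn5, a tight-junction claudin, in 0. Among the 33 fibroblast nuclei Col1a2, a type I collagen chain, had a UMI in 28, Slc6a13, a GABA carrier, in 26 and Cldn5 in 1. The 7 nuclei in both sets (5 of the neuron knockout, 2 of the astrocyte knockout) had a median of 4423 UMIs against 1226 in the other members.

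**Figure D2:**
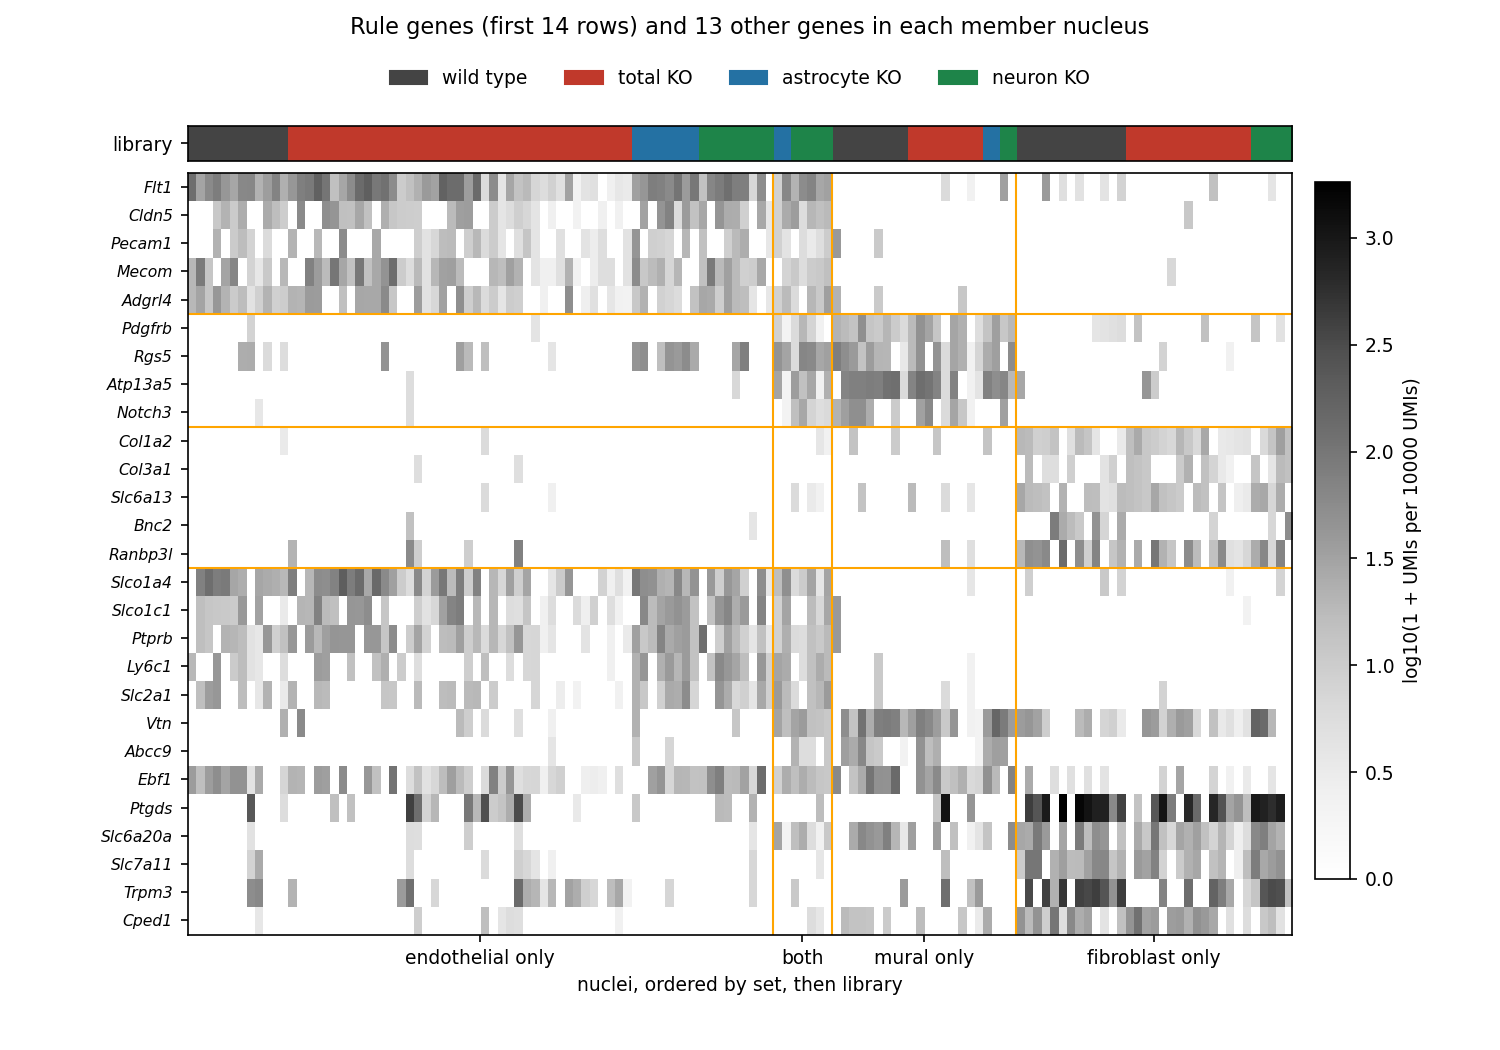
UMIs per 10000 UMIs, as log10(1 + value), for 14 rule genes and 13 other genes (vertical) in each of the 132 nuclei (horizontal), ordered by set and library. The 7 nuclei in both sets carry Flt1 and Atp13a5 together, while the fibroblast nuclei lack both in most cases and carry Slc6a20a and Ptgds. Slc6a20a is also found in 14 of the 22 nuclei that are mural alone.

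Genes outside the rule filled in the endothelial picture. Slco1a4, a carrier of organic anions at the barrier (mm10 chr6:141805440-141856199, minus strand), stood at 1222 CPM over all members with a UMI in 72 of them, and at 1952 CPM in the endothelial set. Per nucleus the median in the endothelial set was 26.4 UMIs per 10000 in wild type, 18.1 in the total knockout, 46.2 in the astrocyte knockout and 8.84 in the neuron knockout, and a UMI was found in 10 of 12, 34 of 41, 10 of 10 and 12 of 14 nuclei. Abcb1a, the P-glycoprotein efflux pump, was at 668 CPM in the endothelial set. Ly6c1 and Ly6a, surface antigens of mouse endothelium, had 145 and 107 UMIs in 42 and 38 members, at 466 and 344 CPM. They are members of a family with near-identical copies, so their counts are uncertain. Other leading genes of the endothelial set included Ctla2a, Sp100, Zfp366, Clec2d and Hspb1, of which Ctla2a is not listed in the wild-type matrix. Of 14 genes of endothelial identity with at least 20 UMIs in the set, 14 were at least 2-fold above the barcodes outside. The same held for 16 of 16 barrier transport genes, 7 of 7 junction genes and 9 of 9 capillary genes. All 20 identity genes together summed to 30.2 CPM outside, so any of them with 20 UMIs in the set was bound to pass. The minimum favours genes that are high in a set. These counts and those of the same kind below are therefore a description and no finding. Among all 2376 genes with at least 20 UMIs in the endothelial set, 788 were at least 2-fold above and 260 at least 2-fold below the barcodes outside. In the pooled members 1178 of 3874 were above and 378 below, with a median of 1.32-fold.

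Markers of the vessel segments were unevenly covered. Tfrc, the transferrin receptor, was at 313 CPM in the endothelial set and Slc7a5, a carrier of large amino acids, at 323 CPM. Among all genes 2376 of 22989 reached 20 UMIs in the endothelial set, and 9 of 10 capillary genes did. Of the 10 venous genes in the files only Nr2f2, Vwf and Il1r1 reached 20 UMIs in the endothelial set, and of the 12 arterial genes only Vegfc and Mgp. Some of the others are not listed in every library: the arterial Bmx is listed in 1, Sema3g and Sox17 in 2, and the venous Tmem252 in 1 and Icam1 in 2. Vwf, the von Willebrand factor gene, had 25 UMIs in 14 of the 77 nuclei.

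Mural nuclei carried pericyte genes. Vtn, which encodes vitronectin (chr11:78499091-78502324, plus strand), had a UMI in 27 of the 29 mural nuclei and stood at 2022 CPM there, against 0.665 CPM outside the members. Abcc9, a subunit of the potassium channel of pericytes, had a UMI in 17 of 29 and stood at 549 CPM. Ebf1, a transcription factor of mural and endothelial cells, had a UMI in 25 of 29. Of 8 pericyte genes with at least 20 UMIs in the set, 7 were at least 2-fold above the barcodes outside, against 355 of all 719 genes. Of 5 smooth-muscle genes (Acta2, Myh11, Myl9, Sorbs2 and Dgkb) 3 were, a share near that of all genes. The median of the 5 was 376-fold the level outside, against 1.98-fold for all genes, and Myl9 was at 1660-fold. Acta2, smooth-muscle actin, had 33 UMIs in 4 nuclei, of which 26 came from 1 nucleus of the neuron knockout that was also in the endothelial set. Myh11, smooth-muscle myosin, had 25 UMIs in 4 nuclei, and Myl9, a myosin light chain, 36 UMIs in 11. Other leading genes of the set included Tbx3os1 (522 CPM), Kcnj8 and Ndufa4l2, and the endothelial Ly6c1, Ly6a and Hspb1. Kcnj8 is not listed in the matrices of the astrocyte and neuron knockouts. In the 22 nuclei that were mural alone, Ly6c1 had 2 UMIs, against 63 in the 7 that were in both sets.

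Fibroblast nuclei were marked by meningeal transporters and Ptgds. Ptgds, the prostaglandin D2 synthase gene (chr2:25466709-25470046, minus strand), stood at 41733 CPM in the set against 44.6 outside the members, with a UMI in 25 of 33 nuclei. Slc6a20a, a proline carrier, had a UMI in 28 of 33 at 2251 CPM, and Slc7a11, the cystine carrier, in 27 of 33 at 2349 CPM. Among the 22 nuclei that were mural alone, Slc6a20a had a UMI in 14 (1005 CPM), Ptgds in 3 (6127.5 CPM) and Slc7a11 in 1. Among the 70 that were endothelial alone, Ptgds had a UMI in 21 (2424 CPM), Slc6a20a in 6 and Slc7a11 in 9. Vtn was a leading gene here too, with 109 UMIs in 24 of 33 nuclei at 1334 CPM. Other leading genes of the set were Slc22a6, Fmod, Prdm6, Gjb2, Aldh1a2, Igf2, Tbx18 and Col1a1. Of these, Slc22a6, Gjb2 and Tbx18 are not listed in the matrices of the astrocyte and neuron knockouts. Aldh1a2, which makes retinoic acid, had 32 UMIs in 14 nuclei, and Bmp6, a secreted growth factor, 92 UMIs in 22. Of 11 fibroblast identity genes with at least 20 UMIs in the set, 11 were at least 2-fold above the barcodes outside, as were 8 of 8 meningeal genes, against 293 of all 787 genes. Lum and Dcn, proteoglycans of the collagen matrix, were sparse: Lum had 10 UMIs in 8 nuclei, and Dcn 7 UMIs in 3. All 6 of 6 basement membrane genes, among them Lama2 at 905 CPM, and 3 of 4 vascular signalling genes were above the barcodes outside by the same margin.

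The pooled share of vascular and meningeal nuclei was highest in the wild-type library. There were 34 among 9369 wild-type barcodes, or 0.363% (exact Clopper-Pearson interval 0.251% to 0.507%). The total knockout had 65 of 31243, or 0.208% (0.161% to 0.265%), the astrocyte knockout 12 of 10731, or 0.112% (0.0578% to 0.195%), and the neuron knockout 21 of 8945, or 0.235% (0.145% to 0.359%). As a ratio to the wild-type share this was 0.573 (0.373 to 0.895) for the total knockout, 0.308 (0.145 to 0.610) in the astrocyte knockout and 0.647 (0.357 to 1.15) in the neuron knockout. The interval of the neuron knockout held 1, but in nuclei of exactly 1 set its ratio was 0.493 (0.254 to 0.918), which leaves out 1. Without the neuron-rich nuclei the counts were 32, 45, 12 and 20, and the ratio of the total knockout was 0.422 (0.262 to 0.686). That ratio depended on the settings. It was 0.331 (0.196 to 0.557) with doublets removed and 0.400 (0.260 to 0.625) over barcodes that pass the neuron limits. With at least 2 markers in place of 3 it was 0.878 (0.643 to 1.21), with at least 4 it was 0.4998 (0.253 to 1.02), and with no neuron limit it was 0.721 (0.486 to 1.09), and these 3 intervals held 1. The 3 comparisons share the wild-type library. The pooled ratio of the astrocyte knockout includes a fibroblast count of 0 from a library that lists only 3 of the 5 fibroblast markers, and its endothelial and mural ratios, 0.728 (0.282 to 1.84) and 0.388 (0.0873 to 1.39), both held 1. Its mural ratio left out 1 with at least 2 markers, at 0.340 (0.120 to 0.852), and in nuclei of exactly 1 set, at 0.194 (0.0204 to 0.937), while its pooled ratio with at least 4 markers, 0.407 (0.141 to 1.06), held 1. With barcodes under 1000 UMIs left out, among them 9, 29, 5 and 7 members, and the other barcodes thinned to 1000 UMIs, the shares were 0.217%, 0.0366%, 0.0472% and 0.126% in the same order, with 20, 11, 5 and 11 nuclei called.

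By set, the differences between libraries were not tested against each other. Endothelial nuclei were 0.128% of wild-type barcodes and 0.131% of the total knockout's, a ratio of 1.02 (0.528 to 2.14), but 16 of the 23 neuron-rich nuclei were endothelial and without them the share was 0.0864%. With doublets removed the endothelial ratio was 0.563 (0.256 to 1.28), and with barcodes under 1000 UMIs left out and the others thinned to that number it was 0.307 (0.0918 to 1.02). In the astrocyte knockout the endothelial share was 0.0932%, and in the neuron knockout it was 0.157%. Mural nuclei were 0.0961%, 0.0288%, 0.0373% and 0.0783% of barcodes in wild type, total, astrocyte and neuron knockout. Fibroblast nuclei were 0.139%, 0.0480%, 0% and 0.0559%. The fibroblast ratio of the total knockout was 0.346 (0.154 to 0.790), but with at least 2 markers it was 1.05 (0.631 to 1.82). The count of 0 in the astrocyte knockout has an upper interval limit of 0.0344%. The deposited matrix of that library lists neither Col3a1 nor Slc6a13, so the count rests on 3 of the 5 markers. Every listed gene of the 4 matrices had UMIs in at least 2 barcodes, and whether the unlisted genes fell short of that was not tested. With those 3 markers alone and at least 2 required, a choice made after seeing the data, there were 14, 40, 6 and 4 nuclei, or 0.149%, 0.128%, 0.0559% and 0.0447% of barcodes.

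**Figure D3:**
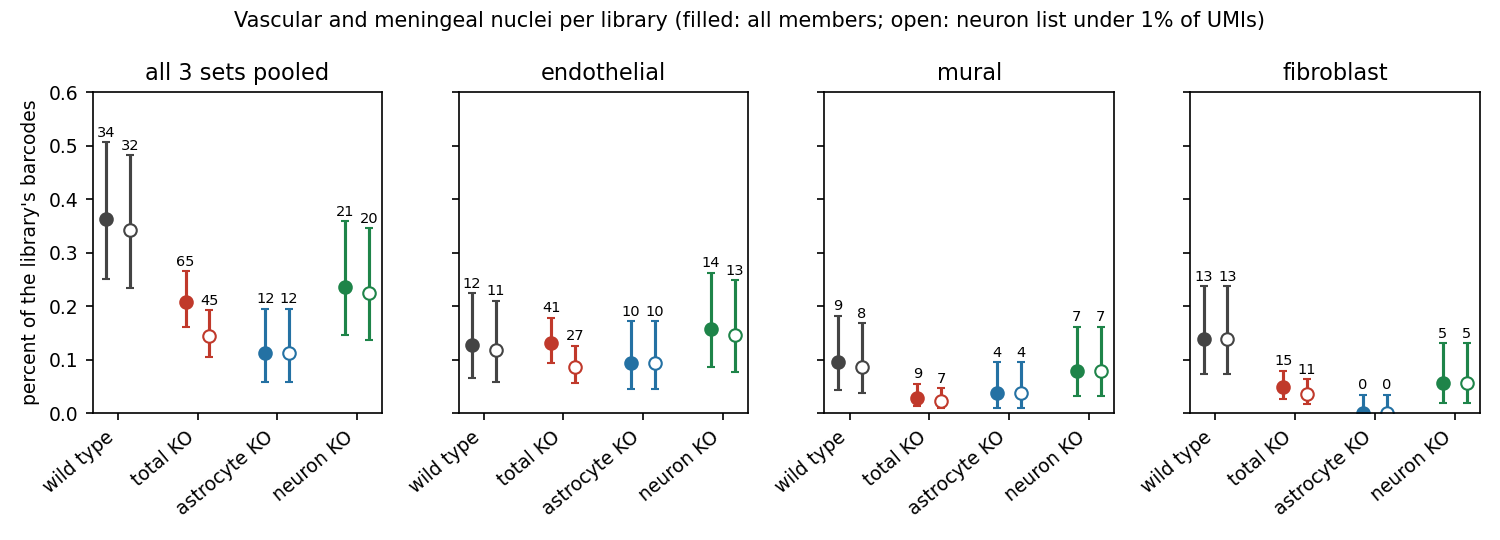
Percent of a library's barcodes (vertical axis) that were members, pooled and for each set, in the 4 libraries. Filled points are all members, open points the members with the neuron list under 1% of UMIs, bars 95% Clopper-Pearson intervals and numbers the nuclei. The pooled wild-type share of 0.363% is the highest of the 4, and the endothelial shares overlap in their intervals.

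Other non-neuronal nuclei, called by 3 of 5 markers behind the same limits, also differed in share between libraries. Against wild type, the total knockout's ratio was 1.56 (1.40 to 1.73) for oligodendrocytes and 1.17 (0.799 to 1.74) for microglia, but 0.823 for oligodendrocyte precursors, 0.262 for astrocytes and 0.170 for choroid plexus. In the astrocyte knockout the ratios were 0.131, 0.374, 0.0687, 0.254 and 0.0643 in that order. In the neuron knockout they were 0.221, 0.329, 0.0584, 0.560 and 0.0221. The differences between cell types were not tested.

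With 1 library of at least 20 members on each side, gene levels of the pooled members could be compared for the total and the neuron knockout, but the astrocyte knockout had 12. In the total knockout, 950 genes had at least 50 UMIs over the pair, and 237 (24.9%) were at least 2-fold higher and 98 (10.3%) at least 2-fold lower than in wild type. When scaled by median ratios instead of totals the split was 304 higher and 52 lower, and the median log2 ratio of all genes moved from 0.05 to 0.42. Without the neuron-rich nuclei 245 genes qualified, of which 26 (10.6%) were higher and 37 (15.1%) lower. Neuron-list genes were 11 of 12 higher, with a median log2 ratio of 1.89. Several lists of vascular and meningeal genes held lower members: 4 of 7 meningeal genes (median -1.76), 3 of 6 fibroblast identity genes (-1.14) and 4 of 5 vascular signalling genes (-1.80) were at least 2-fold lower and none of these higher. The 5 vascular signalling genes were Bmp6, Bmpr2, Nrp1, Pdgfd and Tgfbr3, and all but Nrp1 reached 20 UMIs in the fibroblast set. Pericyte genes were 2 of 4 lower (-1.30). For barrier transport 1 of 7 was higher and none lower, with a median of -0.24. Of 3 genes on the smooth-muscle list, 1 was higher and none lower (0.89). These were Dgkb, Kcnab1 and Sorbs2, and the list summed to 2230 CPM in the barcodes outside. Acta2, Myh11 and Myl9 had too few UMIs to be compared. The barrier median turned to 0.50 with nuclei weighted equally and to 0.13 under median-ratio scaling. Without the neuron-rich nuclei the medians were -1.33 for meningeal, -0.42 for fibroblast identity and -1.58 for vascular signalling genes, and fibroblast identity was at -0.16 with equal weights. The 1 gene of oligodendrocyte precursors that had enough UMIs, Tnr, was higher (2.06).

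The named genes lower in the total knockout's members were at their highest level in the fibroblast set, and Phldb2 stood nearly as high in the mural set (562 CPM against 575). Trpm3, a cation channel (chr19:22139046-22995410, plus strand), had 951 UMIs in 13 wild-type members, 328 in 25 total knockout members, 1 in 1 astrocyte knockout member and 247 in 7 neuron knockout members. The log2 ratio of its CPM in the total knockout was -2.86. Bnc2, which is also a rule gene and encodes a zinc finger protein (chr4:84275095-84675275, minus strand), had 61 wild-type UMIs, 4 in the total knockout, 0 in the astrocyte knockout and 7 in the neuron knockout, with a log2 ratio of -5.25 in the total knockout. Adam12, a metalloprotease, was at -4.20, Plpp3, a lipid phosphatase, at -3.27 and Phldb2 at -2.94. With the neuron-rich nuclei left out these were -3.00 for Trpm3, -3.80 for Bnc2, -3.97 for Adam12, -2.04 for Plpp3 and -1.71 for Phldb2. Fibroblast nuclei were 38.2% of the wild-type members and 23.1% of the total knockout's, and mural nuclei 26.5% and 13.8%. At the other end were Lrch1 at 1.39 (0.37 to 2.59), Slc39a10, a zinc carrier, at 1.12 (0.08 to 2.34), Ablim1 at 1.09 (0.22 to 2.07), Sema6a at 0.97 (0.02 to 2.06) and Lef1, a Wnt transcription factor, at 0.93 (0.16 to 1.78). In the endothelial set alone Ablim1 stood at -0.05, Slc39a10 at 0.04, Sema6a at 0.59 and Lef1 at 0.51. In the members without neuron-rich nuclei Lef1 stood at 1.95, and the other 4 had too few UMIs. Of the 950 genes compared, 5 higher and 96 lower met the conditions for naming. These included a level at least 2-fold above the barcodes outside, which none of the 12 neuron-list genes reached. They did not ask for a 2-fold difference from wild type, so this split cannot be set beside the counts of 2-fold genes. In the neuron knockout 56 genes higher and 20 lower met them.

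In the neuron knockout the highest ratios to wild type included endothelial genes. Of 287 genes with at least 50 UMIs over the pair, 49 (17.1%) were at least 2-fold higher and 54 (18.8%) lower, and 37 and 71 under median-ratio scaling, which moved the median log2 ratio from -0.05 to -0.28. Without the neuron-rich nuclei 41 of 212 (19.3%) were higher and 38 (17.9%) lower. Ly6c1 (chr15:75044018-75048830, minus strand) had 13 UMIs in 8 wild-type members, 20 in 14 of the total knockout, 49 in 9 of the astrocyte knockout and 63 in 11 of the neuron knockout, a log2 ratio of 2.73 in the neuron knockout. Slc2a1, the glucose transporter GLUT1 (chr4:119108711-119137983, plus strand), had 17, 23, 37 and 64 UMIs, with a log2 ratio of 2.37. Ptma was at 2.36 and Ly6a at 2.24. Hbb-bs, a haemoglobin gene with near-identical copies, was at 2.22. Of its UMIs, 37 of 42 in wild type and 71 of 143 in the neuron knockout came from 1 nucleus each. Without the deepest nucleus of each library it was at 1.29. Members with a UMI of haemoglobin numbered 5, 23, 2 and 5 in wild type, total, astrocyte and neuron knockout. With each nucleus weighted equally the log2 ratios were smaller: 2.05 for Ly6c1, 1.15 for Slc2a1, 1.05 for Ptma and 0.50 for Ly6a. In the endothelial set alone they were 1.53, 1.14, 1.39 and 1.63. Of 4 endothelial identity genes 4 were at least 2-fold higher (median 1.78), as were 4 of 5 barrier transport genes (median 1.35). Without its nuclei of 2 sets the neuron knockout kept 16 of 21 members and 26404 of 49924 UMIs, and wild type had no such nucleus. Single nuclei of 2 sets held 28 of its 64 Slc2a1 UMIs and 17 of its 63 Ly6c1 UMIs. In nuclei of exactly 1 set Ly6c1, Slc2a1, Ptma and Ly6a had too few UMIs to be compared. Neuron-list genes were 4 of 5 lower (median -1.62) and astrocyte genes 2 of 3 lower (median -1.04). Of wild type's 416 neuron-list UMIs, 271 and 83 came from 2 neuron-rich nuclei, as did 104 of the neuron knockout's 128 from 1. Of wild type's 217 astrocyte-list UMIs, 79 and 60 came from 2 nuclei. The barrier transport median was 0.73 over genes with at least 20 UMIs over the pair and 0.52 in the endothelial set alone. Slco1a4 was at 0.24 (-0.27 to 0.75) and Tjp1 at -0.05. Endothelial nuclei were 35.3% of the wild-type members and 66.7% of the neuron knockout's. At the lower end were Ttr at -5.39, Nnat at -3.68, Bnc2 at -2.67, Cped1 at -2.32 and Trpm3 at -1.49. Of these, Bnc2 was at -1.09 with each nucleus weighted equally and at -5.41 in members with no UMI of the neuron-gate genes, and Trpm3 was at -0.58 in nuclei of exactly 1 set. Of the wild-type UMIs of Ttr, 200 of 229 came from 1 nucleus.

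Within the endothelial set, the libraries differed less in some barrier genes than in others. These levels are in CPM, from the 11, 27, 10 and 13 endothelial nuclei of wild type, total, astrocyte and neuron knockout with the neuron list under 1%. Doublet calls were kept here, and without them 18 of all 41 endothelial nuclei of the total knockout remain. The 18 include neuron-rich nuclei, which these levels leave out, so fewer than 18 of the 27 are free of a doublet call. Among the total knockout's nuclei, 1 had 309 choroid-list UMIs of 1092. Slco1a4 stood at 3487 (2648 to 4508), 3772 (3124 to 4513), 4536 and 1732 (1321 to 2229), so it was lowest in the neuron knockout. Slc2a1 stood at 902 (505 to 1488), 475 (266 to 784), 1785 and 1760 (1347 to 2261), and its 2 lowest levels were in wild type and the total knockout. Ly6c1 followed the same order, at 601 (288 to 1106), 475 (266 to 784), 2364 and 1732 (1321 to 2229). Without the nuclei of 2 sets, Ly6c1 was at 2066 CPM and Slc2a1 at 1168 CPM in the neuron knockout, the latter within wild type's interval. Of the wild-type nuclei, 1 had 250 choroid-list UMIs among 2896 and none of Slc2a1. Another had 79 astrocyte-list and 17 precursor-list UMIs among 3900 and 1 of Slc2a1. The part of these mixed nuclei in the order of the libraries was not tested. With the nuclei of 2 sets kept, the higher Ly6c1 and Slc2a1 were found in the 2 libraries whose members had the higher mitochondrial share.

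Lef1 (chr3:131110471-131224356, plus strand), a transcription factor of the Wnt pathway that maintains the barrier, had another order: 661 CPM (330 to 1183) in wild type, 1870 (1424 to 2412) in the total knockout, 1254 in the astrocyte knockout and 837 (561 to 1202) in the neuron knockout. Nrp1, a co-receptor for vascular endothelial growth factor, was at 1022 CPM (595 to 1636) in wild type and 285 (130 to 542) in the total knockout. It was at 338 CPM in the astrocyte knockout. In the neuron knockout it had 0 UMIs, where 3 counts would be 86.6 CPM. Spock2, a matrix proteoglycan of capillary endothelium, was at 361, 951, 3764 and 952 CPM. Tjp1, the scaffold of tight junctions, differed less, at 1744, 1743, 1882 and 1299 CPM, with overlapping intervals between wild type (1168 to 2504) and neuron knockout (947 to 1738). Il1r1, the interleukin 1 receptor, was at 120, 571, 0 and 115 CPM, and Vwf at 180, 539, 0 and 144 CPM. The 0 of the astrocyte knockout rests on 20725 UMIs in 10 nuclei, too few to set it apart from wild type or the neuron knockout.

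**Figure D4:**
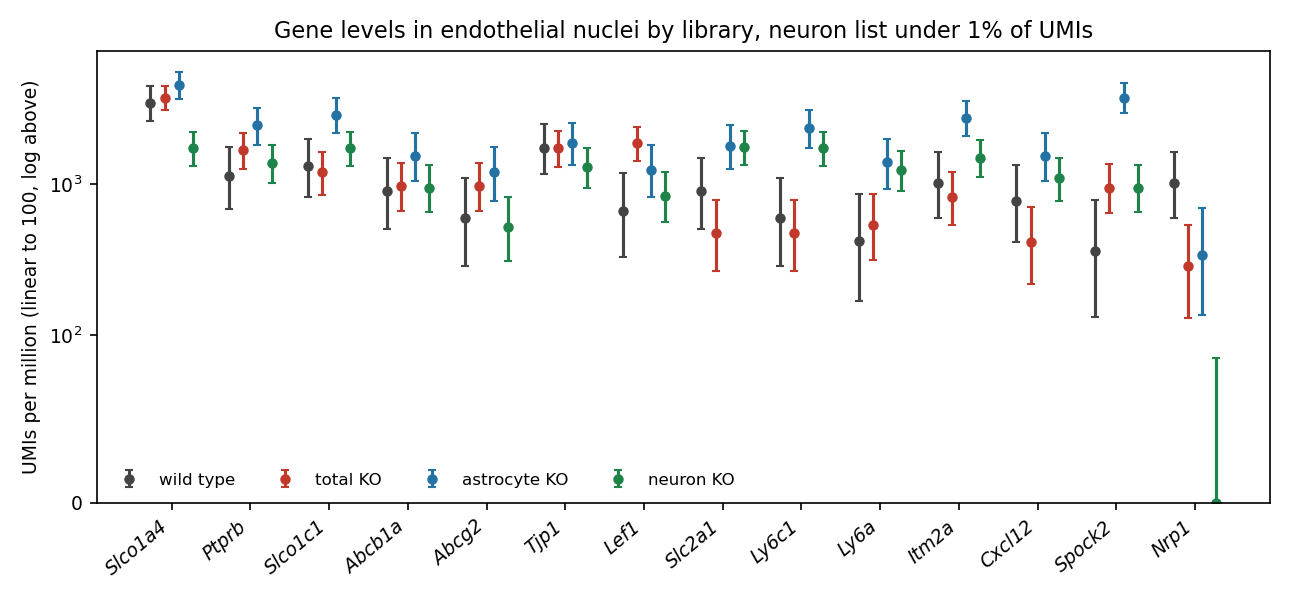
Level of 14 genes (CPM, log-like scale that reaches 0) in the endothelial nuclei with the neuron list under 1% of UMIs, by library, with exact Poisson 95% intervals; at 0 the bar reaches 3 counts. Slco1a4 is lowest in the neuron knockout, and Ly6c1 and Slc2a1 are highest in the astrocyte and neuron knockouts.

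Summed over lists in the same nuclei, endothelial identity genes gave 7456, 8114, 14765 and 10130 CPM in wild type, total, astrocyte and neuron knockout, and barrier transport genes 10161, 12266, 20651 and 11515 CPM. Junction genes gave 3127, 3296, 5018 and 3001 CPM, and Wnt genes 3367, 4342, 5742 and 3810 CPM. Basement membrane genes gave 2826, 1553, 3957 and 3636 CPM, vascular signalling genes 6734, 4596, 6852 and 5541 CPM, and activation genes, such as B2m and Ifitm3, 3307, 3201, 3715 and 4473 CPM. The sums of the astrocyte knockout overlapped those of wild type in their intervals for vascular signalling (5771 to 8076 against 5545 to 8103), basement membrane (3147 to 4911 against 2076 to 3758) and activation genes (2932 to 4644 against 2491 to 4304). Among its nuclei 1, which was also mural, held 9006 of the 20725 UMIs behind its sums. Sele, Selp, Lcn2, Il6, Ccl2 and Cxcl10, inducible genes of inflamed endothelium, are not among the genes the deposited matrices list.

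Within the fibroblast set, Ptgds and Trpm3 were lower in the total knockout. These levels are from the 13, 11 and 5 fibroblast nuclei of wild type, total and neuron knockout with the neuron list under 1%. Doublet calls were kept, and without them 6 of all 15 fibroblast nuclei of the total knockout remain. Ptgds had 2169 UMIs in 10 nuclei (67087 CPM) in wild type, 385 in 7 (29796 CPM) in the total knockout and 684 in 4 (69217 CPM) in the neuron knockout. With the neuron-rich nuclei the total knockout had 558 UMIs in 11 of 15 nuclei. Trpm3 had 883 UMIs in 10 nuclei (27311 CPM), 47 in 3 (3638 CPM) and 243 in 5 (24590 CPM). Per nucleus the median of Trpm3 over all fibroblast nuclei was 326 UMIs per 10000 in wild type with a highest value of 503, 0 in the total knockout with a highest of 166, and 248 in the neuron knockout with a highest of 320, so the ranges overlapped.

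Other fibroblast genes went both ways. Bnc2, whose level within the set depends on the rule that used it, was at 1887 CPM (1443 to 2424) in wild type, 77.4 (1.96 to 431) in the total knockout and 607 (223 to 1322) in the neuron knockout. Adam12 was at 3000, 464 and 3238 CPM, Phldb2 at 804, 77.4 and 1923 CPM and Nnat, a membrane proteolipid, at 2629, 542 and 506 CPM. Higher in the total knockout were Lama1, a laminin chain, at 866 (576 to 1252), 2709 (1887 to 3767) and 202 CPM, Itih5 at 557, 2012 and 101 CPM, and Cemip, a hyaluronan-degrading protein, at 433, 1703 and 0 CPM. Slc6a20a differed less, at 3093 (2517 to 3762), 2322 (1566 to 3314) and 3643 (2552 to 5043) CPM. Summed, the fibroblast identity genes gave 12063, 17181 and 11435 CPM, the meningeal genes 79800, 37691 and 81866 CPM and the basement membrane genes 3897, 9519 and 6173 CPM.

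**Figure D5:**
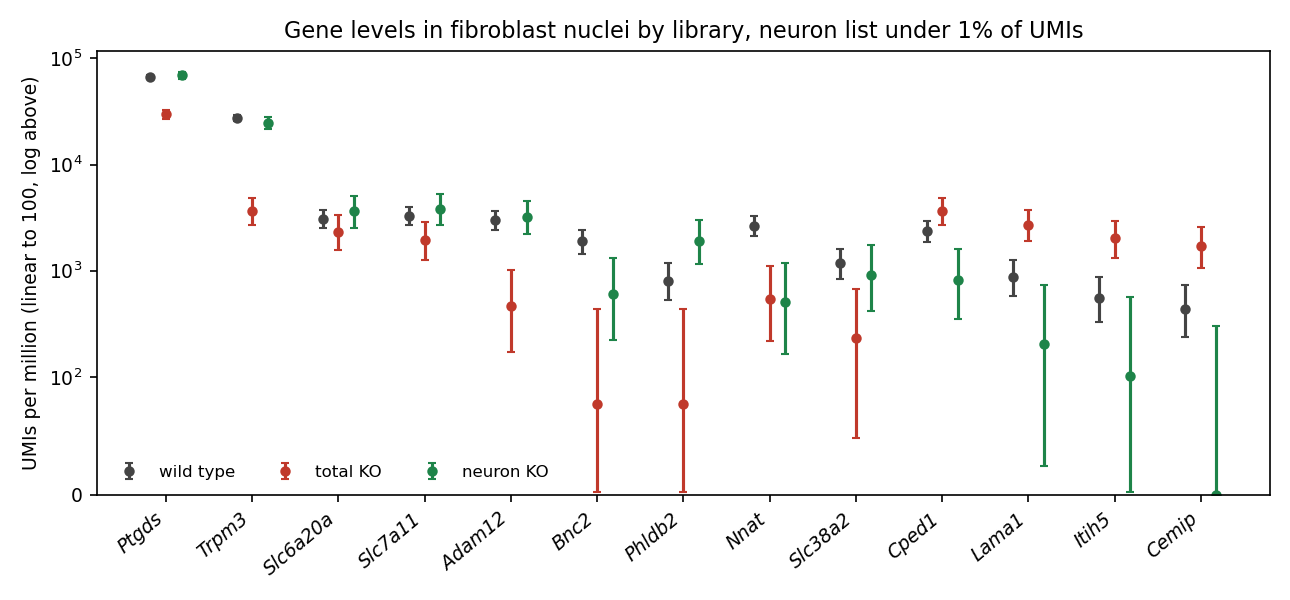
Level of 13 genes (CPM, log-like scale that reaches 0) in the fibroblast nuclei with the neuron list under 1% of UMIs, in wild type, total and neuron knockout, with exact Poisson 95% intervals. Ptgds and Trpm3 are lower in the total knockout, and Lama1, Itih5 and Cemip higher.

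Mgll itself (chr6:88724412-88828360, plus strand) was sparse in these nuclei. It had 13 UMIs in 6 of 34 wild-type members (190 CPM, 101 to 325), 9 in 9 of 65 total knockout members (52.7 CPM, 24.1 to 100.1), 3 in 3 of 12 astrocyte knockout members (135 CPM, 27.9 to 396) and 5 in 4 of 21 neuron knockout members (100.2 CPM, 32.5 to 234). The barcodes outside were at 98.8 CPM, but summed over all 4 libraries with the knockouts, so this is no reference for wild type alone. The log2 ratio was -1.85 (-3.26 to -0.51) in the total knockout. It was -0.49 (-2.94 to 1.37) in the astrocyte knockout and -0.93 (-2.77 to 0.65) in the neuron knockout, and both intervals held 0. Without the neuron-rich nuclei, wild-type members had 12 UMIs in 5 of 32 (215 CPM). The total knockout had 0 in 50911 UMIs of 45 nuclei, where 3 counts would be 58.9 CPM. The upper limit of the log2 ratio was then -1.34. Leaving out the wild-type nucleus with 5 of these UMIs gave 132 CPM (53.0 to 272). No label says which part of Mgll was deleted, so these UMIs do not check the genotype.

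The endocannabinoid list of 15 genes summed to 1980 CPM in the members against 2128 outside. Plcb1, a phospholipase C, had 370 of the members' UMIs (1189 CPM against 1403 outside). Over all members Cnr1, the cannabinoid receptor of neurons, had 3 UMIs (9.64 CPM against 104.6 outside), Faah 10, Abhd6 19, Abhd12 27 (86.8 CPM against 108) and Napepld 20. Cnr2, Gpr55 and Trpv1 had 0. Of 5 genes of the list with at least 20 UMIs, 2 were at least 2-fold above the barcodes outside with a list median of 0.976-fold, against 1178 of all 3874 genes, so the count lies near the background. Plcb4, a phospholipase C that takes part in making 2-arachidonoylglycerol, was at 334 CPM against 70.8. In the arachidonate list 4 of 4 genes were at least 2-fold above. Pla2g4a, a phospholipase that releases arachidonate, had 23 UMIs (73.9 CPM against 2.64), Ptgs2, cyclooxygenase 2, had 5 and Ptgs1 had 0.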

How the data were processed

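The deposited UMI counts per gene and barcode of 4 libraries were used as given by the authors, and per the submitters' processing notes they were made with Cell Ranger ARC 2.0.0 on the mm10 genome. Each genotype had 1 library, so results are levels and ratios with exact 95% intervals for counting error and no test was run. UMIs were summed over the members of a library and given per 1000000 of their UMIs (CPM). Members and gene lists were chosen with earlier results of these data known. Ratios of the pooled members to wild type were computed for genes with at least 50 UMIs over the pair, in libraries with at least 20 members, and 2-fold was the call. Levels and ratios by library within a set are a description only, and wild type had fewer than 20 nuclei in each set. Genes named were list genes with at least 20 UMIs in a set, the 10 of highest ratio to the barcodes outside among genes in at least 20% of a set's nuclei, the 5 highest and 5 lowest ratios to wild type among genes at least 2-fold above the barcodes outside with an interval that leaves out 0, without sex-linked and mitochondrial genes, and rule genes. List genes under that level (Lum, Dcn, Cnr1, Faah, Abhd6, Ptgs2 and those given as at 0 or not listed, such as Ptgs1, Cnr2, Gpr55, Trpv1 and Lyve1) were named after their values were seen. Arterial, venous, Wnt and other lists are described in the text. Doublets were called with Scrublet in scanpy 1.11.5 at 0.8% per 1000 barcodes and marked 3.73%, 23.1%, 5.87% and 1.99% of the wild-type, total, astrocyte and neuron knockout barcodes; members were kept, with removal as an alternative. The ratio and interval code was tested on simulated data. Gene positions are those of GENCODE M21. Analyses used numpy 2.4.6, scipy 1.17.1, pandas 2.3.3 and matplotlib 3.10.9. Alternatives changed the number of markers, the denominator, depth by leaving out barcodes under 1000 UMIs and thinning the others to 1000, doublets, neuron-gate genes, the UMI minimum, scaling and weighting.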

Additional observations from a re-analysis of the deposited data

How the results depend on the processing

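Of 430 alternative values, 313 stayed within the main value's margin, 114 moved and 3 reversed. The alternatives that kept only members with the neuron list under 1%, only the endothelial set, only fibroblast markers listed in every library, or that dropped the neuron gate were added after seeing the data. No paired analysis was possible because each genotype had 1 library. Shares are percentages of barcodes.

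With at least 2 markers, the pooled shares were 0.587, 0.515, 0.205 and 0.402 in wild type, total, astrocyte and neuron knockout. Endothelial nuclei were then 0.235 in wild type and 0.224 in the total knockout. Mural nuclei were 0.192 in wild type, 0.0960 in the total and 0.224 in the neuron knockout, and fibroblast nuclei 0.213 in wild type, 0.224 in the total and 0.0559 in the astrocyte knockout. With at least 4 markers, the pooled share was 0.160 in wild type, 0.0800 in the total and 0.134 in the neuron knockout. The endothelial share of the total knockout was 0.0672. Mural nuclei were 0.0427 in wild type, 0.00640 in the total and 0.00932 in the astrocyte knockout, and fibroblast nuclei 0.0427 in wild type and 0.00640 in the total knockout.

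Over barcodes that pass the neuron gate, pooled shares were 0.945, 0.378, 0.287 and 0.573, and endothelial shares 0.333, 0.238, 0.239 and 0.382. Mural nuclei were 0.250 in wild type, 0.0956 in the astrocyte and 0.191 in the neuron knockout, and fibroblast nuclei 0.361 in wild type, 0.0872 in the total and 0.136 in the neuron knockout. With barcodes under 1000 UMIs left out and the others thinned to 1000 UMIs, pooled shares were 0.217, 0.0366, 0.0472 and 0.126. The total knockout's endothelial share was 0.0233, its mural share 0 and its fibroblast share 0.0133, and mural shares were 0.0326 in wild type and 0.00944 in the astrocyte knockout. With doublets removed, the total knockout's pooled, endothelial and fibroblast shares were 0.125, 0.0749 and 0.0250. With no UMI of the gate genes, its pooled share was 0.154 and its endothelial share 0.0896. With the neuron list under 1% these were 0.144 and 0.0864, and with no neuron gate the pooled share was 0.285. With 500 genes and a 5% mitochondrial limit, the astrocyte knockout's pooled share was 0.0563. With exactly 1 set, the neuron knockout's mural share was 0.0224. With only the fibroblast markers listed in every library and at least 2 of them required, fibroblast shares were 0.128 in the total and 0.0559 in the astrocyte knockout.

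The counts of genes at least 2-fold above and below wild type moved as follows. With at least 20 UMIs over the pair, there were 573 and 361 in the total knockout and 218 and 243 in the neuron knockout. In the endothelial set alone there were 155 and 60, and 23 and 9. With the neuron list under 1% the total knockout had 26 and 37, and with no UMI of the gate genes 133 and 65. Under median-ratio scaling 52 genes were below wild type in the total knockout. The neuron knockout had 17 and 28 with exactly 1 set, 29 and 30 without the deepest nucleus of each library, and 31 above with nuclei weighted equally.

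The median log2 ratio of barrier transport genes in the total knockout was -0.24 and reversed to 0.50 with nuclei weighted equally and to 0.13 under median-ratio scaling, and was -1.01 in the endothelial set. In the neuron knockout it was 0.73 with at least 20 UMIs and 0.52 in the endothelial set. For fibroblast identity in the total knockout it was -1.82 with at least 20 UMIs, -0.42 with the neuron list under 1%, -0.16 with equal weights and -1.75 without the deepest nuclei. For meningeal genes there it was -0.89 in the endothelial set and -1.09 with equal weights, and for vascular signalling -1.11 with equal weights. For the neuron list it was 3.21 in the endothelial set, 4.08 with no UMI of the gate genes and 4.54 without the deepest nuclei in the total knockout. In the neuron knockout it was -0.70 with exactly 1 set and -0.84 with equal weights. Mgll in the total knockout was 0 CPM with the neuron list under 1%. Ablim1 in the total knockout reversed to -0.053 in the endothelial set. The cause of these moves was not tested. Members hold few UMIs, so shares under 0.05% rest on few nuclei.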
